A study of Sus scrofa with 10 samples.

Results

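The 10 genes described here encode enzymes that build triacylglycerol, proteins that coat lipid droplets and lipases that take the stored fat apart: *GPAM*, *AGPAT1*, *AGPAT2*, *LPIN1*, *DGAT1*, *DGAT2*, *PLIN2*, *PLIN3*, *PNPLA2* and *MGLL*. They were chosen by function, and a probe set stood for one of them if the annotation of the array gave that symbol and no other. This gave 16 of the 23999 porcine probe sets. A gene was read as the mean of its probe sets with a mean log2 intensity of at least 4 over the 10 arrays, a filter that 10 of the 16 probe sets passed. Thus 9 of the 10 genes were measured, among 4730 genes tested in all. The exception was *AGPAT1*, whose single probe set lay at the lowest value of the table, 2.19, on all 10 arrays. This does not show that the gene is low, because a probe set can fail to detect its transcript. For *PNPLA2*, 1 probe set also lay at 2.19 on all arrays while the other had a mean of 9.48.

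The animals were backcross females of Iberian and Landrace origin, in which crossbred boars had been mated to Landrace sows. All were kept on the same diet and management, and were ranked by a principal component of carcass and intramuscular fatty acid traits. The 5 H animals came from the end with more polyunsaturated fatty acids in the *longissimus dorsi* muscle, and the 5 L animals from the end with more saturated and monounsaturated ones. Liver RNA of each animal was hybridised to 1 Affymetrix porcine array, so the animal is the replicate. The groups differ in a muscle trait, and the labels give no measure of liver fat. Some sibs lie in opposite groups, and this kinship is not modelled. Values are log2 intensities, so a difference of 1 is a doubling. An intensity also depends on the probes, and levels are therefore compared between animals and not between genes.

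Triacylglycerol is made by adding fatty acids to a glycerol backbone in successive steps. *GPAM* encodes the mitochondrial enzyme of the first acylation, and the AGPAT enzymes add the next acyl chain to give phosphatidate. Lipin 1, the product of *LPIN1*, removes the phosphate, and DGAT1 and DGAT2 add the last acyl chain. In liver cells the product is stored in droplets coated by perilipins such as those of *PLIN2* and *PLIN3*, or is secreted in lipoproteins. Adipose triglyceride lipase, encoded by *PNPLA2*, starts the breakdown, and the monoacylglycerol lipase of *MGLL* ends it.

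The tissue had the expression of liver. Of 9 listed hepatocyte markers 8 were measured, and their summed level ranged from 17.57 to 17.80 in H and from 17.69 to 17.82 in L. No adipocyte marker of 6 was measured: *ADIPOQ*, *LEP*, *FABP4* and *LIPE* lay below the filter, and *PLIN1* and *CIDEC* had no probe set with that symbol alone. No skeletal muscle marker of 4 was measured either. The summed levels of macrophage markers (2 of 5 measured) ranged from 9.96 to 10.70 in H and from 10.23 to 10.74 in L, and those of stellate cells and fibroblasts (3 of 6) from 9.88 to 10.75 in H and from 9.54 to 11.06 in L. The corresponding ranges were 7.96 to 8.62 in H and 8.11 to 8.80 in L for endothelial markers (2 of 4), 8.03 to 8.94 and 8.16 to 8.52 for cholangiocyte markers (2 of 4), and 8.60 to 9.49 and 8.69 to 9.14 for erythroid markers (1 of 3). The *GAPDH* 3' minus 5' difference, which grows as RNA degrades, was highest in L1, at 2.70, and lowest in L2, at 1.68. Of 63 correlations of the 9 genes with the 6 measured marker lists and this RNA measure, none passed an adjusted p of 0.05 (5 had an unadjusted p under 0.05, permutation test, and are given beside their genes). In whole tissue, fewer cells of a type and less RNA per cell cannot be told apart.

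None of the 9 genes differed between H and L beyond the spread between animals. With limma, 0 of 9 had an adjusted p or an unadjusted p under 0.05, beside 0% of the 4730 genes tested by the adjusted p and 2.64% by the unadjusted p. The values of H and L overlapped for all 9, while 0.359% of all genes did not overlap. The log2 difference, H minus L, was below 0 for 7 genes and above 0 for 2, *LPIN1* and *GPAM*. Over all genes 37.2% were higher in H. The median difference was −0.29 for the 9 genes and −0.04 for all genes tested. An absolute difference of at least 0.5 was found for 3 of the 9, *MGLL*, *LPIN1* and *PLIN2*, and for 1.97% of all genes.

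Several of these genes varied widely from animal to animal. Over the 10 animals the SD of the log2 value was above the median of all genes, 0.22, for 8 of the 9. The SD was 1.65 for *PLIN2*, 1.15 for *MGLL*, 0.99 for *LPIN1*, 0.74 for *DGAT2* and 0.71 for *GPAM*. The SD of *PLIN2* was larger than that of 99.7% of the genes tested, and the SDs of *MGLL* and *LPIN1* were larger than those of 99.2% and 98.8%. At the other end, *PNPLA2* had an SD of 0.16, which 28.2% of the genes fell below. The SD depends on the animal left out, and without L3 it was 1.40 for *PLIN2* and 0.49 for *DGAT2*.

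**Figure D1:**
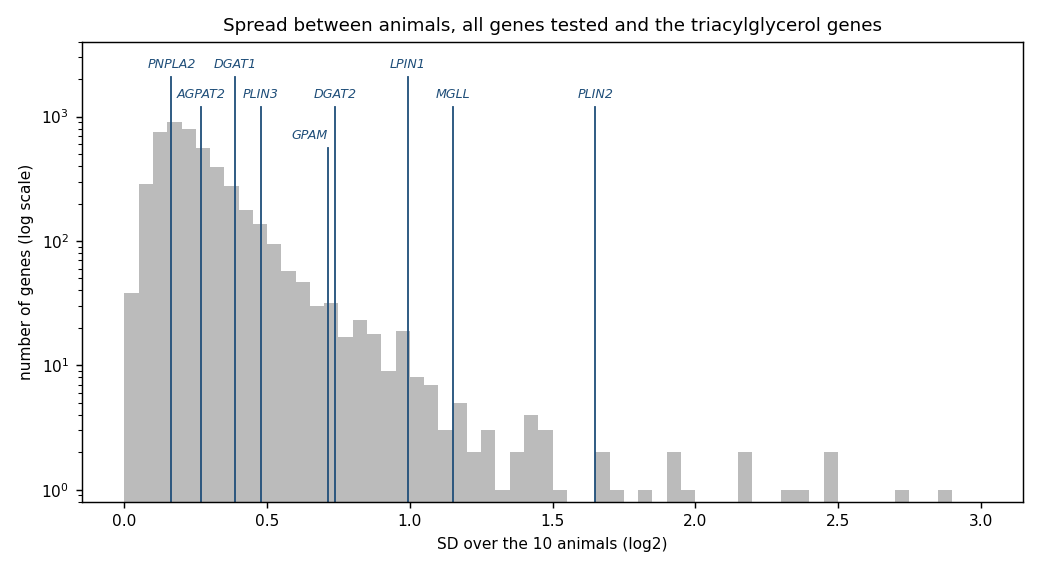
Number of genes (log scale) by SD of the log2 value over the 10 animals, for all 4730 genes tested (grey bars), with the 9 triacylglycerol genes as lines. *PLIN2*, *MGLL* and *LPIN1* lie in the right tail, at 1.65, 1.15 and 0.99, and *PNPLA2* at 0.16 lies left of the median of 0.22.

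*PLIN2* encodes the droplet coat protein that is most closely tied to the fat content of liver cells. Its log2 value was 6.51, 9.33, 9.82, 10.44 and 7.86 in H1 to H5. In L1 to L5 it was 9.00, 7.24, 11.86, 10.41 and 8.02. The lowest animal, H1, and the highest, L3, were 5.34 log2 units apart, a 40.6-fold range on the array scale. High and low animals were found in both groups, and the mean ± SD of 5 animals was 8.80 ± 1.59 in H and 9.31 ± 1.85 in L, a difference of −0.51 (SE 0.96, limma, adjusted p = 0.985). The 95% confidence interval, −2.65 to 1.63, leaves room for a difference in either direction, and the sign turned without H1 (0.059) and without L3 (0.13), while without L2 the difference was −1.03. *PLIN3* encodes a coat protein that cells of most tissues make. It was 8.78, 9.27, 9.02, 9.96 and 9.01 in H1 to H5, and 9.79, 9.14, 9.14, 10.27 and 9.37 in L1 to L5. H4 and L4 were the highest animals of their groups, and the difference was −0.33 (SE 0.27, limma, adjusted p = 0.985), −0.52 without H4 and −0.15 without L4.

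**Figure D2:**
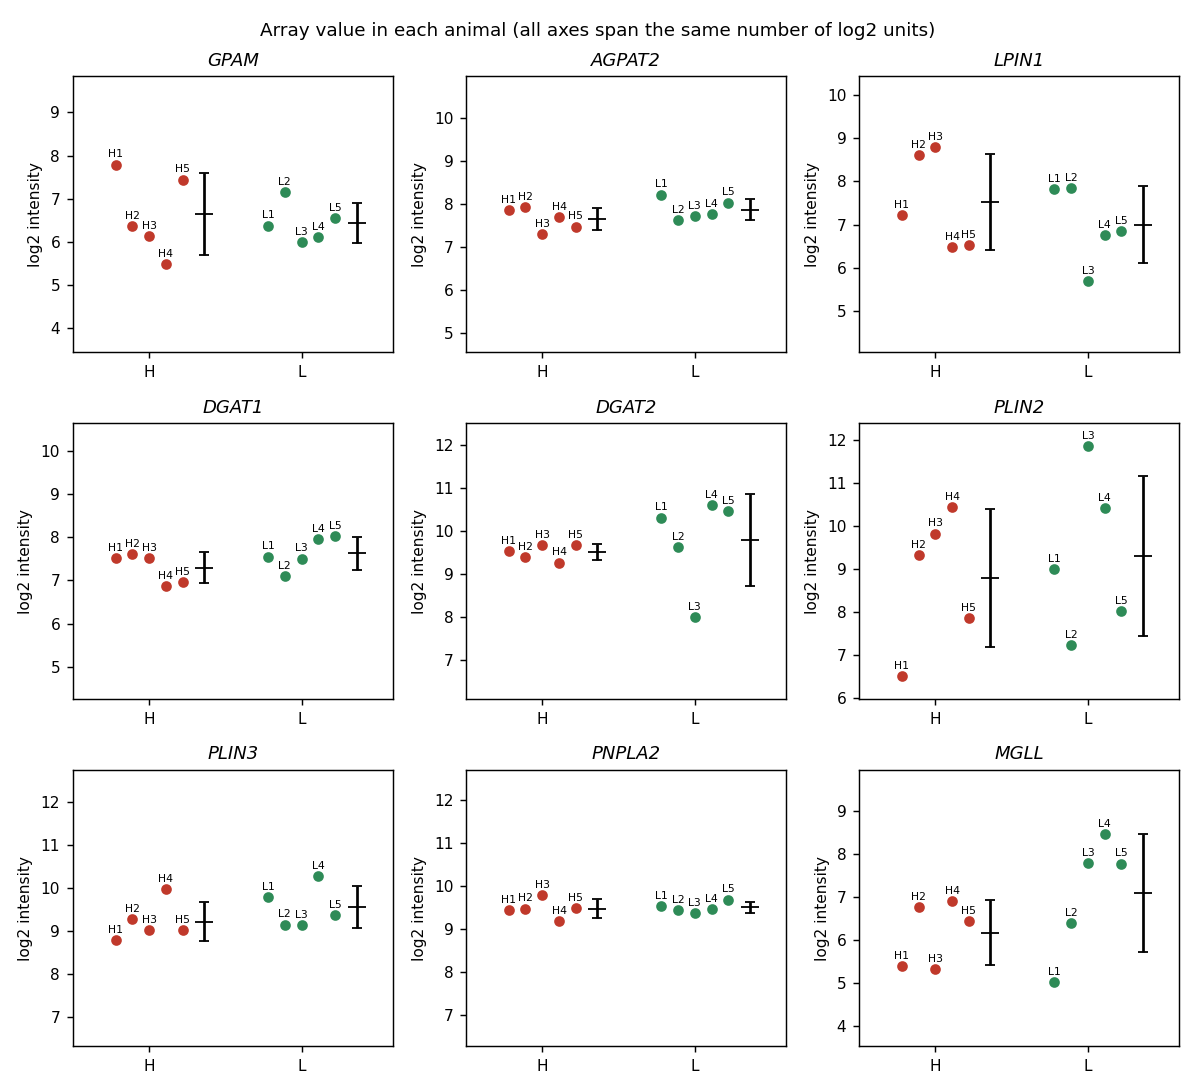
Log2 intensity of each of the 9 measured genes in each animal, H in red and L in green, with points spread sideways only to separate the animals and bars giving the mean ± SD of 5 animals. All axes span the same number of log2 units: *PLIN2*, *MGLL* and *LPIN1* vary widely inside both groups, *PNPLA2* (SD 0.16) and *AGPAT2* (SD 0.27) vary least of the 9, and *DGAT2* varies in L but little in H.

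The first acylation gene, *GPAM*, ran from high to low in the reverse of *PLIN2*. Its value was 7.79, 6.36, 6.14, 5.48 and 7.44 in H1 to H5, and 6.37, 7.14, 5.98, 6.11 and 6.55 in L1 to L5. H1 and H5 were the highest animals and H4 the lowest, so that H spanned the whole range of 2.31 log2 units and L lay inside it. The difference was 0.21 (SE 0.42, limma, adjusted p = 0.985), and it ran from −0.076 without H1 to 0.50 without H4. The gene rests on 1 probe set. Of the other 2 *GPAM* probe sets, 1 lay at the lowest value on every array. The other was at 3.78 in H1, 3.49 in H5 and 3.52 in L2 and between 2.24 and 2.29 in the remaining animals, so that the animals above its floor were those with the highest *GPAM* value.

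*AGPAT2*, the acyltransferase of the next step, had an SD of 0.27, low among the 9 but larger than that of 63.4% of all genes tested. It was 7.86, 7.94, 7.31, 7.70 and 7.48 in H1 to H5, and 8.22, 7.63, 7.73, 7.76 and 8.04 in L1 to L5. The difference was −0.22 (SE 0.15, limma, adjusted p = 0.985), with the lowest animal, H3, in H and the highest, L1, in L. Without either of these it was −0.13. L1 also had the largest *GAPDH* 3' minus 5' difference, and over the animals *AGPAT2* correlated with that measure with an r of 0.82 and a rho of 0.85 (permutation test, p = 0.00211 and 0.00291, adjusted p = 0.133 and 0.183 over the 63 relations above). With that measure as a covariate, the unadjusted p of *AGPAT2* in limma fell to 0.0492, with an adjusted p of 0.969. The part of RNA quality in these values was not tested further.

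*LPIN1* had the largest positive difference of the list. It was 7.22, 8.60, 8.79, 6.48 and 6.52 in H1 to H5, and 7.82, 7.84, 5.68, 6.75 and 6.85 in L1 to L5. H2 and H3 stood highest and L3 lowest, but H4 and H5 lay below 4 of the 5 L animals. The mean ± SD of 5 animals was 7.52 ± 1.11 in H and 6.99 ± 0.89 in L, and the difference was 0.53 (SE 0.57, 95% confidence interval −0.72 to 1.79, limma, adjusted p = 0.985). It remained above 0 whichever animal was left out, between 0.21 without L3 and 0.80 without H4. Its 2 probe sets ranked the animals alike, with an r of 0.97 and a rho of 0.90 between them over the 10 animals, and differed by 0.54 to 1.32 log2 units.

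The 2 genes of the last acylation had an r of 0.43 and a rho of 0.58 with each other (permutation test, adjusted p = 0.662 and 0.467). Without L3 this r was 0.73. *DGAT1* was 7.52, 7.61, 7.52, 6.87 and 6.96 in H1 to H5, and 7.55, 7.10, 7.50, 7.97 and 8.02 in L1 to L5. H4 and H5 were the lowest animals and L4 and L5 the highest, and the difference was −0.33 (SE 0.21, limma, unadjusted p = 0.146, adjusted p = 0.985). *DGAT1* had an r of 0.67 with the summed hepatocyte markers and of −0.70 with the erythroid ones (rho 0.75 and −0.58, permutation test, adjusted p = 0.507 each for r and 0.507 and 0.648 for rho), whose part in its values was not tested. *DGAT2*, which handles newly made fatty acids in liver, was 9.54, 9.40, 9.67, 9.27 and 9.68 in H1 to H5, and 10.32, 9.63, 8.01, 10.60 and 10.46 in L1 to L5. The H animals lay within 0.41 log2 units of each other, while L spanned 2.59, with L3 below and L1, L4 and L5 above all H animals. The difference was −0.29 (SE 0.43, limma, adjusted p = 0.985) and ran from −0.74 without L3, the animal with the highest *PLIN2*, to −0.09 without L4 when 1 animal was left out.

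The lipase genes differed in spread, with the lowest SD of the 9 for *PNPLA2* and the second highest for *MGLL*. *PNPLA2* was 9.44, 9.47, 9.79, 9.18 and 9.48 in H1 to H5, and 9.54, 9.44, 9.37, 9.46 and 9.68 in L1 to L5. Its difference of −0.03 (SE 0.11, limma, adjusted p = 0.989) had a 95% confidence interval of −0.28 to 0.22, the narrowest of the 9, and its sign turned without H4 (0.045) and without L5 (0.019). Its r with the summed endothelial markers was 0.73 (rho 0.63, permutation test, adjusted p = 0.507 and 0.648), and their part was not tested. *MGLL* was 5.39, 6.77, 5.33, 6.90 and 6.44 in H1 to H5, and 5.03, 6.40, 7.79, 8.46 and 7.77 in L1 to L5. L3, L4 and L5 were above every H animal, whereas L1 was the lowest of all 10. The *MGLL* difference of −0.92 (SE 0.62, 95% confidence interval −2.30 to 0.45, limma, unadjusted p = 0.167, adjusted p = 0.985) was the largest of the 9 in size. Leaving out 1 animal moved it between −1.44 without L1 and −0.58 without L4. *MGLL* had an r of 0.66 with the summed stellate cell and fibroblast markers (rho 0.61, permutation test, adjusted p = 0.509 and 0.648), and their part in the difference was not tested.

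**Figure D3:**
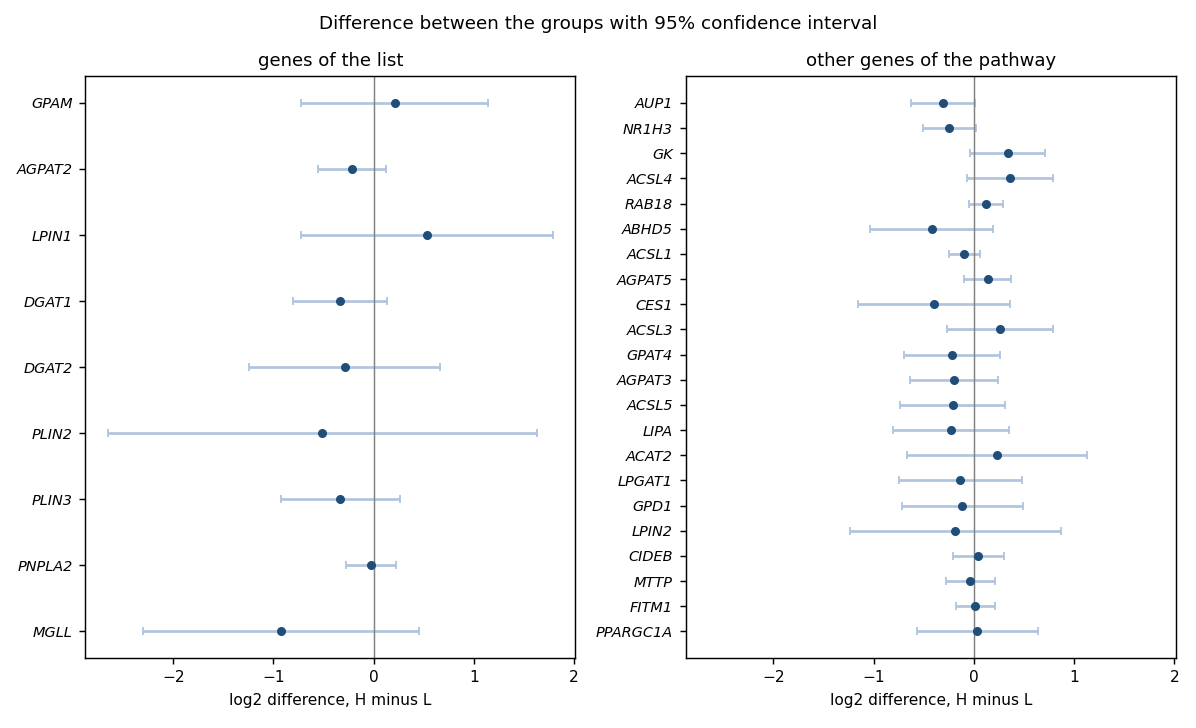
Log2 difference, H minus L, with its 95% confidence interval from limma for the 9 measured genes (left) and for 22 other genes of the pathway, ordered by p (right). Every interval includes 0, and the widest, of *PLIN2*, runs from −2.65 to 1.63.

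Other genes of triacylglycerol synthesis, droplets and lipolysis did not separate the groups either. Of 51 such genes, 22 were measured, 9 lay below the filter and 20 had no probe set with their symbol alone. With limma, 0 of 22 had an adjusted p or an unadjusted p under 0.05. The difference was above 0 for 9 and below 0 for 13, with a median difference of −0.11. The smallest unadjusted p values were those of *AUP1*, *NR1H3*, *GK* and *ACSL4*. *AUP1*, which encodes a droplet-associated protein, had a difference of −0.31 (SE 0.14), and *NR1H3*, the lipid-sensing nuclear receptor LXR alpha, one of −0.24 (SE 0.12, limma, unadjusted p = 0.0584 and 0.0668, adjusted p = 0.985 each). *GK*, the glycerol kinase gene, had a difference of 0.34 (SE 0.17), and *ACSL4*, an acyl-CoA synthetase of polyunsaturated fatty acids, one of 0.36 (SE 0.19, limma, unadjusted p = 0.0724 and 0.0885, adjusted p = 0.985 each). The 4 with the largest SD were *LPIN2*, a second lipin (0.80), *ACAT2*, named on the array for an acetyl-CoA acetyltransferase (0.69), *CES1*, a carboxylesterase (0.61), and *ABHD5*, the coactivator of adipose triglyceride lipase (0.51).

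The 9 genes did not vary as 1 block over the animals. Among their 36 pairs, 20 had an r above 0, beside 53.04% of all pairs of genes tested. The median absolute r was 0.30, beside 0.27 over the 11169901 pairs of genes tested. A single pair passed an adjusted p of 0.05, *GPAM* with *PLIN2*. Their r was −0.88 (permutation test, p = 0.00074, adjusted p = 0.0266 over 36 pairs) and their rho −0.98 (p = 3e-05, adjusted p = 0.00108). With each group centred on its mean the r was −0.88 (exact permutation within groups, adjusted p = 0.0025), so the relation was as large within the groups. Over all pairs of genes, 0.232% had an absolute r as large. The relation is visible in single animals: H1, L2 and H5, the 3 lowest in *PLIN2*, were the 3 highest in *GPAM*, and L3, H4 and L4, the 3 highest in *PLIN2*, were the 3 lowest in *GPAM*.

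**Figure D4:**
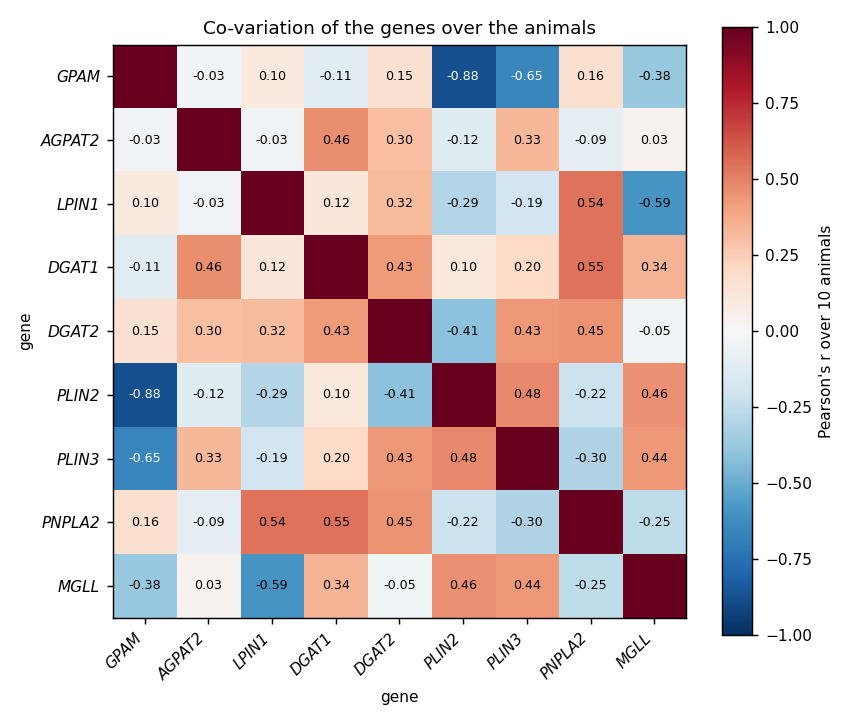
Pearson's r over the 10 animals for each pair of the 9 measured genes, red above 0 and blue below. The cell of *GPAM* and *PLIN2*, at −0.88, is the deepest, and no other pair passed an adjusted p of 0.05.

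Leaving out the 2 animals farthest from the median of *GPAM*, H1 and H5, the r was −0.83, and leaving out 1 animal at a time it lay between −0.93 and −0.83. With fewer animals the adjusted p rose above 0.05 without H1 (0.208), H2 (0.0647), H3 (0.0800), L1 (0.0541), L2 (0.0592) or L4 (0.0788), and without the 2 farthest (0.480). *GPAM* and *PLIN3* had an r below 0 (r −0.65, rho −0.59; permutation test, p = 0.0394 and 0.0814, adjusted p = 0.662 and 0.467), a pair that did not pass and whose r was −0.44 without H1 and H5. *LPIN1* and *MGLL* had an r of −0.59 and a rho of −0.65 (permutation test, p = 0.0756 and 0.0492, adjusted p = 0.662 and 0.443), with an r of −0.64 without H2 and H3. *PLIN2* and *PLIN3* had an r of 0.48, and *DGAT1* and *DGAT2* one of 0.43, neither of which passed.

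*LPIN1* is known to be induced in liver by fasting and by glucocorticoids, and was set against a list of genes with such responses, of which 12 of 16 were measured. It correlated past the threshold with 1 of them, *TSC22D3*, the glucocorticoid-induced leucine zipper gene (r 0.84, rho 0.88; permutation test, p = 0.00231 and 0.00153, adjusted p = 0.0277 and 0.0184 over the 12). Of all genes tested, 1.06% had an absolute r of at least 0.8 with *LPIN1*. An absolute r of at least 0.7 was found for 4.5% of all pairs of genes. *TSC22D3* was 9.64, 9.96, 10.18, 8.80 and 8.21 in H1 to H5, and 9.47, 9.13, 8.78, 9.09 and 9.13 in L1 to L5. H2 and H3 were the highest for both genes. Without these 2 animals the r was 0.62, so the size of the relation rests in part on them.

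A further 4 genes of the list had an unadjusted p under 0.05 with *LPIN1*, each with an r above 0. These were *TAT*, tyrosine aminotransferase (r 0.79, rho 0.79; permutation test, adjusted p = 0.0523 and 0.0411), *PPARGC1A*, a coactivator of gluconeogenic genes (r 0.71, rho 0.65; adjusted p = 0.0546 and 0.114), *PCK1*, which encodes the gluconeogenic enzyme PEPCK (r 0.70, rho 0.78; adjusted p = 0.0546 and 0.0411), and *PER1*, a clock gene that glucocorticoids induce (r 0.70, rho 0.71; adjusted p = 0.0546 and 0.0796). Without H2 and H3 these r values were 0.67, 0.31, 0.45 and 0.57. The remaining 7 did not pass, which with 10 animals does not show that a relation is absent. The r was 0.45 for *IGFBP1*, 0.42 for *SDS*, 0.08 for *PDK4*, −0.05 for *FKBP5*, −0.15 for *ACADM*, −0.19 for *ANGPTL4* and −0.36 for *CPT1A* (permutation test, adjusted p between 0.380 and 0.905). In the same order the rho was 0.58, 0.42, 0.13, −0.21, −0.08, −0.25 and −0.45 (adjusted p between 0.175 and 0.839). *FKBP5*, also a glucocorticoid target, was not among the genes that varied with *LPIN1*. The part of glucocorticoids or fasting in these relations was not tested. By rho 3 of the 12 passed, *TSC22D3*, *TAT* and *PCK1*. With the groups centred none did, and the *TSC22D3* r was then 0.83 (exact permutation within groups, adjusted p = 0.0650). Leaving out 1 animal, the *TSC22D3* r lay between 0.77 and 0.89, and its adjusted p rose above 0.05 without H2 (0.120), H3 (0.134), H4 (0.0744), L1 (0.0615), L4 (0.0625) or L5 (0.0637).

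The other 8 genes were set against the same list after the values had been seen, in a family of 96 relations. Of these, 8 had an absolute r of at least 0.7 (8.33%, beside 4.5% of all pairs of genes). Those past the threshold were *GPAM* and *PLIN2* with *CPT1A*, the gene of the carnitine palmitoyltransferase that admits long-chain fatty acids to mitochondria. *CPT1A* was 10.81, 11.84, 12.09, 12.92 and 11.71 in H1 to H5, and 12.18, 11.48, 12.61, 12.69 and 11.85 in L1 to L5. H1 was the lowest, L2 the next, and H4, L4 and L3 were the highest. With *PLIN2* the r was 0.90 and the rho 0.90 (permutation test, p = 0.00057 and 0.00085, adjusted p = 0.0274 and 0.0408), and without H1 and L3 the r was 0.89. With *GPAM* the r was −0.92 and the rho −0.92 (permutation test, p = 0.00025 and 0.00056, adjusted p = 0.0240 and 0.0408), and without H1 and H5 the r was −0.91. Without H1 and H4, the 2 animals farthest from the median of *CPT1A*, the r was 0.90 with *PLIN2* and −0.80 with *GPAM*.

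**Figure D5:**
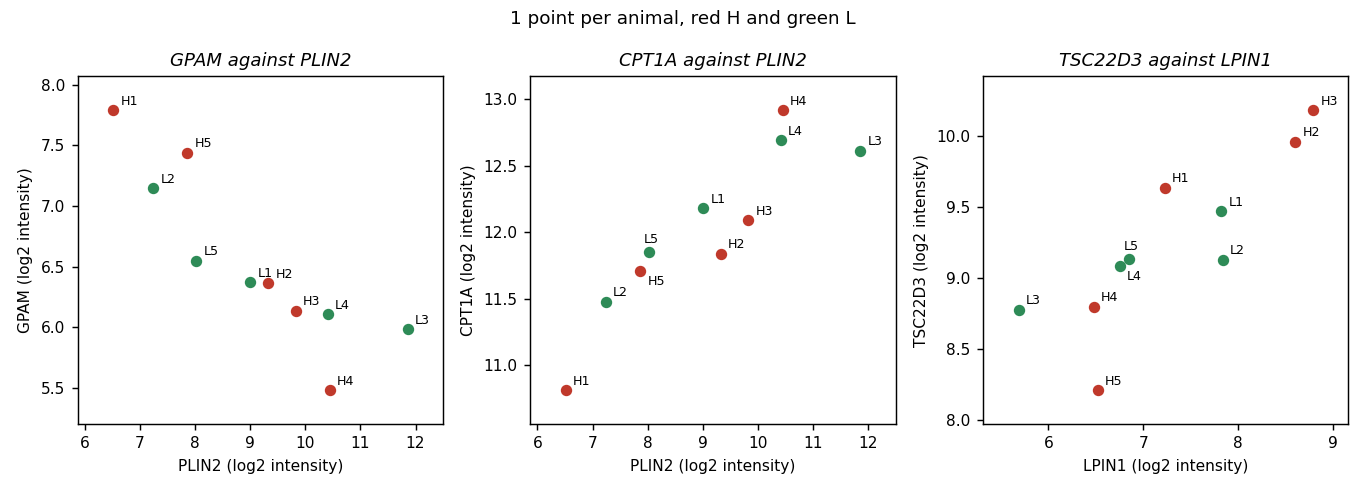
Log2 intensity of *GPAM* against *PLIN2* (left), *CPT1A* against *PLIN2* (middle) and *TSC22D3* against *LPIN1* (right), 1 point per animal, H in red and L in green. The left points fall (r −0.88) and the middle points rise (r 0.90) with H and L mixed along the line, and on the right H2 and H3 stand apart at the top (r 0.84).

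With fewer animals the *CPT1A* relations kept their sign. Leaving out 1 animal, the r lay between 0.86 and 0.93 with *PLIN2* and between −0.96 and −0.87 with *GPAM*. For *PLIN2* the adjusted p rose to 0.0903 without H1, 0.0501 without H3, 0.0546 without H5, 0.0560 without L2 and 0.0696 without L4, and for *GPAM* to 0.0903 without H1. *PNPLA2* had an r of 0.88 with *IGFBP1*, a fasting-induced binding protein of insulin-like growth factors (rho 0.79; permutation test, p = 0.00251 and 0.00872, adjusted p = 0.0730 and 0.171), which did not pass and whose r was 0.55 without H3 and H4. *GPAM* had an r of −0.83 with *ANGPTL4*, a lipoprotein lipase inhibitor (rho −0.87; permutation test, p = 0.00304 and 0.0023, adjusted p = 0.0730 and 0.0736), which did not pass either. That r was −0.76 without H1 and H5 and −0.69 without H4 and H5. Against the 22 measured pathway genes, none of 198 relations passed, by r or by rho, and the smallest adjusted p was 0.105 (permutation test). An absolute r of at least 0.7 was found for 18 of the 198 (9.09%), beside 4.5% of all pairs of genes tested.

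*PLIN2* was the gene of the list with the most genes varying in step with it. Of the 4730 genes tested, 4.57% had an absolute r of at least 0.8 with *PLIN2*, 147 with an r of at least 0.8 and 69 with an r of −0.8 or less. The share was 2.94% for *GPAM* and between 0.952% and 1.29% for the other 7, beside 1.27% over all pairs of genes. H4 and L3, the animals highest in *PLIN2* and lowest in *GPAM*, were also the arrays least like the rest over all genes tested. Their median r with the other arrays was 0.9725 and 0.9726, beside 0.9782 to 0.9804 for the remaining arrays. The part of this in the relations of *PLIN2*, *GPAM* and *CPT1A* was not tested. Among the 1386 genes with an SD of at least 0.3, those most like *PLIN2* over the 10 animals were *PPIF*, the mitochondrial cyclophilin (r 0.94), *DDX39A*, an RNA helicase (0.93), *RASSF1* (0.91), *AP3D1*, an adaptor of vesicle transport (0.91), and *C2H11orf24* (0.91). Those most like *MGLL* were *SMIM8* (0.92), *HK1*, a hexokinase (0.90), *SRA1* (0.88), *XPNPEP1*, an aminopeptidase (0.87), and *SLC25A5*, a mitochondrial ADP/ATP carrier (0.87). Those most like *LPIN1* were *PCOLCE2*, a procollagen processing enhancer (0.95), *SLC25A38*, a mitochondrial carrier (0.92), *COX7A1*, a cytochrome oxidase subunit (0.91), LOC641352 (0.89) and *GNMT*, glycine N-methyltransferase (0.86). These are the highest of 1386 values of r over 10 arrays and are given as a description.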

How the data were processed

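Liver RNA of 10 females (5 H, 5 L) was read on 1 array each. The authors normalized the arrays with GCRMA, and the deposited table holds log2 values. GCOS, GCRMA and RMA are named in the submitters' processing notes, and their versions and a genome build for the arrays are not given in the sources used here. Array medians were 3.78 to 3.85. Arrays give no depth, and their number limits the precision. Gene names come from the array's platform annotation, updated by Entrez ID (9961 of 10069 with 1 symbol; 108 kept the platform name). Low values are compressed towards 2.19.

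H and L were compared over 4730 genes by two-sided moderated tests without covariates (limma 3.58.1, R 4.3.3), adjusted by Benjamini-Hochberg (threshold 0.05). The procedure was tested on simulated data. Errors of differences are moderated standard errors. Correlations over the 10 animals used 100000 permutations, two-sided, in Python 3.11.15 (numpy 2.4.6, pandas 2.3.3, scipy 1.17.1), with exact enumeration within groups or below 10 animals. The limma p values set a difference against the spread between animals of a group, and the permutation p values set an r against shuffled animals. Both treat the animals as independent, although some are sibs. Figures used matplotlib 3.10.9. The members, lists and tests were chosen with earlier results of these data known, and the study had listed *LPIN1* from these animals. The text names all members, the pathway genes with p under 0.05 or else the 4 with the smallest p, the 4 with the largest SD, the measured genes of the fasting list, and the 5 genes most like each of the 3 most variable members. Other filters, scalings, gene summaries, priors, weights, covariates and leaving out animals were tried.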

Additional observations from a re-analysis of the deposited data

How the results depend on the processing

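Under all alternatives, 0 genes passed between H and L, of the members, the pathway list, the member probe sets or all genes, so no call changed. Of 189 log2 differences of members under alternatives, 184 kept their sign and 5 turned: *GPAM* without H1 (−0.076, within a range of −0.076 to 0.50 with 1 animal left out), *PLIN2* without H1 (0.059) and without L3 (0.13, range −1.03 to 0.13), and *PNPLA2* without H4 (0.045) and without L5 (0.019, range −0.11 to 0.045). Some of the 189 could not turn. The exact permutation test, the block, the other prior and filters at a mean log2 of 3 or 6 leave the difference itself unchanged. In limma, *MGLL* without L1, *DGAT1* without L2 and *DGAT2* without L3 reached unadjusted p values of 0.0137, 0.0421 and 0.00368, with adjusted p values of 0.949, 0.793 and 0.997. With the animal number as a block, 0 genes and 0 members passed, and 140 genes had an unadjusted p under 0.05 instead of 125. This block changed no call. The sources do not say that equal numbers mark a pair. Deviations of H and L animals of the same number correlated between −0.237 and 0.281, and best with the own number for 1 of the 5. These values cannot show which animals are sibs.

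The number of correlated member pairs fell from 1 to 0 without the 2 farthest animals and was 0 to 1 with 1 animal left out. The number of fasting genes correlated with *LPIN1* was 3 by Spearman's rho, 0 with centred groups, 0 without the 2 farthest animals, 0 with the highest probe set of each gene, and 0 to 2 with 1 animal left out. For *GPAM* and *PLIN2* the r was −0.83 without the 2 farthest animals, and −0.93 to −0.83 with 1 left out. For *LPIN1* and *TSC22D3* it was 0.83 with centred groups, 0.62 without the 2 farthest, 0.81 with the highest probe set, and 0.77 to 0.89 with 1 left out. For *CPT1A* it was 0.89 with *PLIN2* and −0.91 with *GPAM* without the 2 farthest, and 0.86 to 0.93 and −0.96 to −0.87 with 1 left out. Without the 2 animals farthest in *CPT1A* itself, H1 and H4, it was 0.90 with *PLIN2* and −0.80 with *GPAM*. A smaller number of animals raises the p that a given r can reach.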

Other observations

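The genes that ran most opposite to *PLIN2* over the 10 animals, among the 1386 with an SD of at least 0.3, were looked up after the values had been seen. They were *ABCB11*, the bile salt export pump (r −0.95), *NDUFC2*, a subunit of respiratory complex I (−0.95), *IZUMO4* (−0.94), *BCKDHB*, a subunit of the branched-chain keto acid dehydrogenase (−0.92), and *GLRX5*, a mitochondrial glutaredoxin (−0.90). The genes most like *GPAM* were *DNAJC19* (0.93), *AQP11*, an aquaporin (0.91), *WWP1*, a ubiquitin ligase (0.89), *ITGB3*, an integrin (0.89), and *ABTB2* (0.88). For *AQP11* the rho was 0.67, well below its r. These are extremes of many values of r over 10 arrays and were not tested.

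Over the animals, *SDS*, serine dehydratase, ran from 3.58 in H5 to 9.49 in H1, and *IGFBP1* from 7.96 in H4 to 13.16 in H3, on the log2 scale. H4 was the lowest animal in *IGFBP1*, *PCK1* (12.40), *PDK4* (11.17) and *PPARGC1A* (7.20) and the highest in *CPT1A* (12.92), *ANGPTL4* (9.86), *FKBP5* (9.53) and *ACADM* (14.68), so that genes of the same fasting and glucocorticoid list lay at both extremes in 1 animal. The array of H4 also had the lowest median r with the other arrays, 0.9725, whose part in this was not tested.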
